A study of Homo sapiens with 402 samples.

Results

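The solvent controls of 1 culture plate, 3240-AT, were compared: 4 MCF10A control libraries that received water and 12 that received DMSO, 16 of the 402 libraries of the series. They were chosen by their labels alone, as the libraries without a chemical on the plate that carried controls in both solvents. MCF10A is a non-tumorigenic epithelial line from human breast, here unmodified (wild type) and grown from 1 passage, 105. The cells were plated at 500 per well in 384-well plates, left for a day, and held with solvent or chemical for 48 h. RNA was read by plexWell, a plate-based method in which the cDNA of each well gets its own barcode before wells are pooled. The water controls were numbers 39, 40, 47 and 48. The DMSO controls were numbers 33 to 38 and 41 to 46. The numbers 33 to 40 are called the first set and 41 to 48 the last set below, so each set held 2 water and 6 DMSO controls. The same plate held 80 dosed libraries: PFOA, a perfluorinated acid, dissolved in water (16), and PFDA, PFNA, PFOS and phenanthrene dissolved in DMSO (64), each at 0.025, 0.25, 2.5 and 25 µM with 4 libraries per dose. The DMSO concentration is not given in the sources used here. Nothing in the labels says that the controls came from separate cultures, so the p-values for them measure a spread between wells, which may be technical. That spread was estimated over all 96 libraries of the plate, so the dosed libraries shaped it as well as the controls.

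DMSO is a small polar solvent that carries poorly soluble compounds into culture medium and enters cells freely. MCF10A cells grow as basal-type epithelium, with keratins of the basal layer, laminins and integrins. The aldo-keto reductases of the AKR1C family reduce carbonyl groups of steroids, prostaglandins and lipid aldehydes, and several respond to the transcription factor NRF2, which many electrophilic compounds switch on.

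Library depth was the total count. It ran from 4.61 to 14.9 M (mega) in water controls and from 4.65 to 15.1 M in DMSO controls. Every first-set library held at least 7.95 M counts, whereas the last set spanned 4.61 to 8.14 M. The mitochondrially coded share of counts was 7.44% to 11.2% in water and 6.11% to 13.6% in DMSO, with overlapping ranges. By this share the first set fell apart by number: controls 34, 36, 38 and 40 were at 11.1% to 13.6%, and controls 33, 35, 37 and 39 at 6.11% to 7.44%. The counts of its DMSO controls differed by 8.5 to 15.8 times the sampling variance per gene between libraries of the same kind (both odd or both even) and by 34.1 to 87.8 times between the kinds. Each kind held 1 water and 3 DMSO controls, and the labels name no cause. All 12 epithelial identity genes looked up were present in the files, and their summed level was 2652 to 3075 CPM (counts scaled to the size of the library) in water and 2364 to 3288 CPM in DMSO. Of 15 markers of fibroblasts, endothelium, blood cells and fat cells, 13 were listed in the files, and COL1A2, VWF, PTPRC and CD3E had no count in any of the 16 controls. Their summed level was 108 to 133 CPM in water and 61.1 to 93.1 CPM in DMSO, most of it from DCN, which is described with the matrix genes.

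Of 19468 genes tested with edgeR's quasi-likelihood test, 795 (4.08%) were called between DMSO and water controls at a Benjamini-Hochberg adjusted p under 0.05. DMSO controls had the higher level for 380 of these (1.95% of the tested genes) and the lower level for 415 (2.13%). Most differences were small: the median absolute log2 difference among the called genes was 0.53, a 1.44-fold difference, and 137 genes differed at least 2-fold. Leaving out water control 39 gave 384 called genes, and leaving out number 40 gave 432. A term for the set and for odd or even numbers within the first set gave 1022, leaving out the 4 even-numbered first controls gave 355, and leaving out the 4 odd-numbered ones gave 366. The ranges of the water and the DMSO libraries did not overlap for 326 of the 795 called genes, against 403 of all 19468 tested genes (2.07%). In these bulk libraries, fewer cells of a type and less RNA per cell cannot be told apart. The genes with the largest decreases were KRT14, LAD1, SULT1E1, AKR1C2 and S100A2, and the largest increases were in SAA2, SAMD11, TNFSF14, MRC2 and CACTIN, among genes that averaged 3 or more in log2 CPM and in which all 4 water libraries lay on the same side of the DMSO mean of their set.

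**Figure D1:**
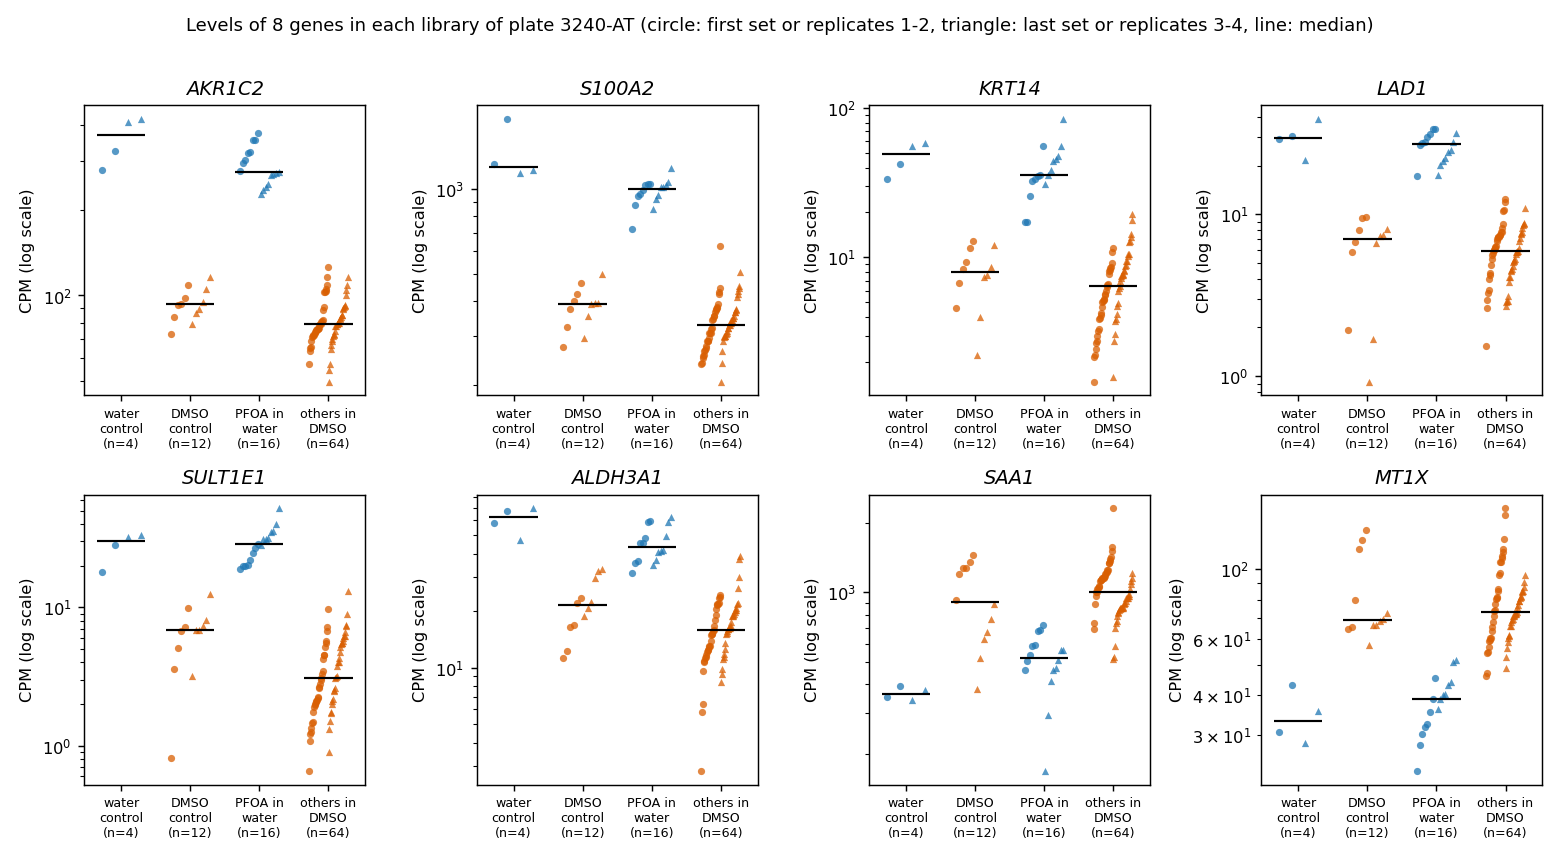
CPM on a log scale in each library of plate 3240-AT for 8 genes, in 4 water controls, 12 DMSO controls, 16 libraries dosed with PFOA in water and 64 libraries dosed with chemicals in DMSO. Lines are medians, circles the first set or dosed replicates 1 and 2, triangles the last set or replicates 3 and 4, and points within a set are ordered by level. The first 6 genes lie lower in both DMSO groups, and the DMSO ranges of SAA1 overlap those in water.

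Several aldo-keto reductases were lower in DMSO. Of 12 tested aldo-keto and carbonyl reductase genes, 5 were lower in DMSO, namely AKR1C2, AKR1C1, AKR1C3, AKR1B1 and CBR1, and AKR7A2 was higher (log2 difference 0.28), a call that was lost when any 1 water control was left out. Called genes made up 50% of the 12, against 4.08% of all tested genes. The median log2 difference of the 12 was -0.42, against 0.03 for all tested genes. AKR1C2, which inactivates the androgen dihydrotestosterone, had the smallest p of all genes. It stood at 326, 279, 413 and 423 CPM in water controls 39, 40, 47 and 48, and at 72.8, 92.9 and 117 CPM in the lowest, the median and the highest of the 12 DMSO controls. Every water library lay above every DMSO library, 3.82-fold on the fitted scale (log2 difference -1.93, SE 0.10, adjusted p = 1.87e-32). AKR1C1, which inactivates progesterone, was at 159, 205, 169 and 183 CPM in the water controls and between 45.4 and 86.8 CPM in DMSO, with a median of 60.1 (log2 difference -1.55, SE 0.14, adjusted p = 9.03e-16). The androgen- and prostaglandin-converting AKR1C3 was at 156, 200, 196 and 208 CPM in water and 75 to 115 CPM in DMSO (log2 difference -1.02, SE 0.09, adjusted p = 2.18e-15). AKR1B1, the aldose reductase that makes sorbitol, differed by less: its water mean was 990 ± 81.8 CPM (SD, n = 4), and its DMSO mean 679 ± 73.6 CPM (SD, n = 12) (log2 difference -0.54).

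AKR1C1, AKR1C2 and AKR1C3 lie side by side on chromosome 10 (GRCh38.p14 positions 4963415 to 4983283, 4987775 to 5018000 and 5048781 to 5107686). In 50-base windows of the longest GENCODE v29 transcript, 50.8% of AKR1C2 windows also occur in AKR1C1 transcripts, 28.3% of AKR1C1 windows in AKR1C2, and 10.5% of AKR1C3 windows in either. How reads that fit both genes were counted is not given in the sources used here, so the split between AKR1C1 and AKR1C2 is uncertain. The RefSeq promoter windows of the pair, from 250 bases before to 50 after the start, are shown because the genes moved together, with the longest stretch that is identical in both in capitals. That stretch runs for 245 bases, from -246 to -2 in AKR1C1 (chr10:4963165-4963464, plus strand) and from -250 to -6 in AKR1C2 (chr10:5003808-5004107, minus strand).
AKR1C1: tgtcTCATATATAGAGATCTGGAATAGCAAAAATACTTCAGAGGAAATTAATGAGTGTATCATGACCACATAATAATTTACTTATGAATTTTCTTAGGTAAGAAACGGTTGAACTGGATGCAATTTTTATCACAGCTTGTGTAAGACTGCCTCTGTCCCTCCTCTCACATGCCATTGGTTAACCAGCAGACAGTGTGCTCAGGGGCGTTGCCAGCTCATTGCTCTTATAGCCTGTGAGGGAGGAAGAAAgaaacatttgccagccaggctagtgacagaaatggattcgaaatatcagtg
AKR1C2: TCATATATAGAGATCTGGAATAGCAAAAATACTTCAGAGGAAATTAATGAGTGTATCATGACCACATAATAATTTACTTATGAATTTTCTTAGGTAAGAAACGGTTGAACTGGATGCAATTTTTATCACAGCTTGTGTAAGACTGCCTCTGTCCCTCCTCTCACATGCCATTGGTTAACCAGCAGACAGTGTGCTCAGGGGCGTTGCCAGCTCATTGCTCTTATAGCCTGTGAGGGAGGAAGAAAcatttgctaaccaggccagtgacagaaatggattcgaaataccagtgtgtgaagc
The core of the antioxidant response element that NRF2 binds, searched as TGACNNNGC on both strands, had 0 matches in either window, while 13.3% of 35116 RefSeq promoter windows of this length hold it. This says only that these letters are not in these windows.

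Some other NRF2 targets were called. Of 29 tested in the list, 5 were lower in DMSO and ABCC3, an export pump, was higher. Together these were 20.7% of the tested members, against 4.08% of all tested genes. The count of lower genes was 8 with DESeq2 and 6 with a term for the set. It was 2 without water control 47, 3 without number 39 and 1 without the even-numbered first controls. SLC7A11, the cystine transporter, was at 36.6, 44.3, 51.5 and 45.8 CPM in the water controls and 15.8 to 42.1 CPM in DMSO, so the ranges overlapped (log2 difference -0.70, adjusted p = 0.00413). TRIM16L, TRIM16, PIR and TKT had log2 differences of -0.43, -0.38, -0.37 and -0.25. The quinone reductase NQO1, a widely used NRF2 marker, did not pass the test, with a log2 difference of -0.01 (adjusted p = 0.966) and levels of 801 to 842 CPM in water and 707 to 894 CPM in DMSO. HMOX1, heme oxygenase, did not pass either (log2 difference -0.43, adjusted p = 0.476).

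Aldehyde dehydrogenases and retinoid genes had 4 lower and 1 higher of 13 tested (38.5% called, against 4.08% of all tested genes). The lower count was 2 when water control 39 or 40 was left out. ALDH3A1, which oxidises lipid and aromatic aldehydes, was at 58.1, 66.9, 69.6 and 47.1 CPM in water and at 11.2, 21.3 and 33.1 CPM in the lowest, median and highest DMSO library. The groups did not overlap (log2 difference -1.56, SE 0.18, adjusted p = 1.68e-10). ALDH3A1 is also the single called gene of 9 tested aryl hydrocarbon receptor targets. ALDH1A3, which makes retinoic acid, had a log2 difference of -0.73 (adjusted p = 4.96e-04), and the retinaldehyde reductase DHRS3 one of -0.42. Among 20 tested phase II conjugation and export genes (15% called), SULT1E1, MGST2 and CES1 were lower and none was higher. SULT1E1, the sulfotransferase that inactivates estrogens, was at 18.1, 28.3, 33.5 and 32.2 CPM in water and 0.810 to 12.4 CPM in DMSO, with a median of 6.87. Its groups did not overlap (log2 difference -2.06, SE 0.26, adjusted p = 1.76e-09).

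Several genes of basal epithelium were also lower. Of 9 tested genes of the basal keratin list, which also holds TP63, 3 were lower in DMSO and none higher. That is 33.3%, against 4.08% of all tested genes, and the median log2 difference of the list was -1.05. Of the 12 epithelial identity genes 5 (41.7%) were lower, namely KRT14, KRT17, SFN, EPCAM and CDH3, and none was higher. Without the even-numbered first controls 3 were lower. With a term for the set of controls, 5 genes of the basal keratin list were lower (also KRT15 and TP63). So were 6 epithelial identity genes, and 1, ITGB4, was higher. KRT14, the keratin partner of KRT5 in basal cells, was at 33.3, 42.5, 55.4 and 58.8 CPM in water controls 39, 40, 47 and 48. Its DMSO levels were 2.22, 8.01 and 12.8 CPM at the lowest, median and highest, a 5.56-fold difference with no overlap (log2 difference -2.48, SE 0.28, adjusted p = 5.49e-11). KRT17, a keratin of stressed and basal epithelium, was at 179 to 229 CPM in water and 77 to 139 CPM in DMSO (log2 difference -1.05, adjusted p = 8.35e-07). KRT6A, its companion in activated keratinocytes, was at 1278 to 1706 CPM in water and 741 to 1122 CPM in DMSO (log2 difference -0.65). In contrast, KRT5 did not pass the test (log2 difference 0.27, adjusted p = 0.518), nor did TP63, the master regulator of basal epithelium, which was low (log2 difference -1.28, adjusted p = 0.0502, and 0.0442 with the set term).

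S100A2, a calcium-binding protein of basal cells, was at 1225, 1783, 1169 and 1142 CPM in the water controls and at 274, 391 and 500 CPM in the lowest, median and highest DMSO control. No library overlapped (log2 difference -1.80, SE 0.11, adjusted p = 1.04e-25). Its relative S100A14 was at 140, 179, 168 and 124 CPM in water and 42 to 81.2 CPM in DMSO (log2 difference -1.45). LAD1, ladinin, a protein of the epithelial anchoring filaments, was at 29.2, 30.4, 21.8 and 39 CPM in water and 0.919 to 9.59 CPM in DMSO (log2 difference -2.19, SE 0.22, adjusted p = 9.12e-14). SFN, the 14-3-3 sigma protein of keratinocytes, differed by less but with little spread: the water mean was 464 ± 52.9 CPM (SD, n = 4), the DMSO mean 299.5 ± 26.1 CPM (SD, n = 12) (log2 difference -0.64, SE 0.06, adjusted p = 3.15e-13). MIR205HG, the host transcript of an epithelial microRNA, had a log2 difference of -1.21. FGFBP1, a carrier of fibroblast growth factors, had one of -1.43, and SYT8, a synaptotagmin, one of -1.41. None of the 19 tested squamous differentiation genes was called in either direction, although their median log2 difference was -0.42 and 13 of the 19 were negative. With edgeR 3 of the 19 had an unadjusted p under 0.05, and DESeq2 called 0. In DMSO chemicals against PFOA over the 4 doses, described below, 7 of the 19 were lower and 1 was higher. That comparison called 22.3% of all tested genes. Of 12 tested luminal keratins and markers, 1 was called between the controls (8.33%, against 4.08% of all tested genes). It was CLDN7, with a log2 difference of -0.65.

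Of 20 tested cytokine and acute phase genes, 4 were higher in DMSO (SAA1, SAA2, the complement protein C3 and the NF-kB inhibitor NFKBIA) and 2 were lower (IL1A and IL1B). Called genes made up 30% of the 20, against 4.08% of all tested genes. The count of higher genes was 2 when water control 39 or 47 was left out. SAA1, a serum amyloid A protein, was at 393, 352, 378 and 342 CPM in the water controls and at 382, 905 and 1453 CPM in the lowest, median and highest DMSO control. The lowest DMSO library lay inside the water range (log2 difference 1.37, SE 0.23, adjusted p = 9.12e-06). SAA2 was at 31.6, 22, 36.6 and 19.8 CPM in water and 26.6 to 155 CPM in DMSO (log2 difference 1.69, adjusted p = 4.66e-04). SAA1 and SAA2 share sequence: 54.1% of 50-base windows of SAA1 occur in SAA2 transcripts, so their split is uncertain. The interleukin-1 cytokines were lower in DMSO. IL1A was at 41.9, 36.6, 30.1 and 28.8 CPM in water and 4.14 to 23.1 CPM in DMSO (log2 difference -1.18, adjusted p = 4.05e-06). IL1B was at 65.2, 68.4, 45.8 and 47.9 CPM in water and 8.09 to 39.5 CPM in DMSO (log2 difference -1.29, adjusted p = 9.12e-06). Neither cytokine overlapped between the groups.

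Interferon-stimulated genes had 4 of 32 tested (12.5%, against 4.08% of all tested genes called) higher in DMSO and none lower. Among them, IRF7, which drives interferon genes, had a log2 difference of 1.21, IFI6 one of 0.79 and DDX60 one of 1.78, all with overlapping ranges. These calls rest on single water libraries: without water control 40 none of the 32 was called, and without water control 39, or without the even-numbered first controls, 1 was.

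Of 8 tested metallothioneins, the small zinc- and copper-binding proteins, 7 had a positive log2 difference. The 1 called, MT1X, made up 12.5% of them, against 4.08% of all tested genes. MT1X was at 30.7, 43, 35.8 and 28.3 CPM in the water controls and at 57.5, 69.0 and 132 CPM in the lowest, median and highest DMSO control, without overlap (log2 difference 1.25, SE 0.21, adjusted p = 2.15e-05). The abundant MT2A did not pass the test, at 8185 to 12840 CPM in water and 10120 to 19180 CPM in DMSO (log2 difference 0.41, adjusted p = 0.174). The MT1X promoter window (chr16:56682220-56682519, plus strand, RefSeq on GRCh38.p14) is shown with matches to the core of the metal response element in capitals, searched as TGCACNC or TGCGCNC on both strands.
MT1X: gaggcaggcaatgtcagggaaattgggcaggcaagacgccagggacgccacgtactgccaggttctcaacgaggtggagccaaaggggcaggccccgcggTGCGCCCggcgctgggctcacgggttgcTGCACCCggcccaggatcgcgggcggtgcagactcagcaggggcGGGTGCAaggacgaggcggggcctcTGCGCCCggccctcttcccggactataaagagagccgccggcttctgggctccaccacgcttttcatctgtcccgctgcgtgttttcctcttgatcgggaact
It holds 4 matches, which start at -150, -122, -78 and -53 from the transcription start, and 29.6% of all 35116 promoter windows hold at least 1. A match describes the letters and not a bound site.

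Matrix and adhesion genes moved in both directions, 5 higher and 3 lower of 34 tested (23.5% called, against 4.08% of all tested genes). The higher count was 2 without water control 39 or 47, and 3 without water control 40 or 48 or without DMSO control 34, 36, 38 or 44. The lower ones belong to the epithelial anchoring machinery: COL17A1, a collagen of the hemidesmosome, at 58.7, 70.9, 33 and 49.7 CPM in water and 17.9 to 35.6 CPM in DMSO (log2 difference -1.0, adjusted p = 3.97e-06), its partner integrin ITGA6 (log2 difference -0.54), and ITGB6, an activator of latent TGF-beta (log2 difference -1.35). The higher ones were the matricellular CCN1 (log2 difference 0.68, adjusted p = 2.11e-04), the laminin chains LAMA5, LAMB1 and LAMC1 (0.55, 0.44 and 0.29) and COL1A1, which had a mean of 0.738 CPM in water and 4.12 CPM in DMSO. POSTN, periostin, was at 12.8 to 17.9 CPM in water and 2.56 to 12.7 CPM in DMSO (log2 difference -1.24). DCN, the proteoglycan decorin and a fibroblast marker, was at 84.6, 70.2, 84.9 and 70.0 CPM in water and 29.9 to 50.7 CPM in DMSO (log2 difference -1.02, adjusted p = 7.45e-07). It was the 1 called gene among the 7 tested markers of other cell types, and the part of such cells in the result was not tested. Of 22 tested TGF-beta response and mesenchymal genes (18.2% called), the cadherin CDH2 and the inhibitor ID2 were higher, and SNAI2 and SERPINE2 lower. The higher count was 1 without water control 39, 40 or 48, and 0 without the even-numbered first controls.

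Proliferation genes leaned one way. Of 30 tested mitotic genes 5 (16.7%, against 4.08% of all tested genes called) were higher in DMSO and none lower. A positive log2 difference was seen in 28 of the 30 (median 0.19). Of 30 tested DNA replication and S phase genes 4 (13.3%) were higher and none lower (median 0.11). Leaving out water control 40, 47 or 48 gave 3 mitotic and 1 replication gene, and leaving out water control 39 or DMSO control 35, 43, 44 or 45 gave 2 replication genes. TOP2A, topoisomerase II of dividing cells, was at 224, 186, 212 and 219 CPM in water and 258, 287 and 310 CPM in the lowest, median and highest DMSO control (log2 difference 0.46, SE 0.07, adjusted p = 2.71e-06). E2F1, which drives entry into S phase, was at 31.3 to 40.5 CPM in water and 42.5 to 71.7 CPM in DMSO (log2 difference 0.79, adjusted p = 9.77e-05). MKI67 and BIRC5 differed by 0.29 and 0.27 on the log2 scale, and their groups did not overlap. Of 22 tested p53 targets 9.09% were called, against 8.34% of all genes tested at a minimum count of 50. The 2 called, CCNG1 and GDF15, were lower (log2 differences -0.25 and -0.81), and none was higher. Neither was called without water control 47 or 48 or without the even-numbered first controls, and 1 was without water control 40 or DMSO control 34 or 37.

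Glycolysis and hypoxia response genes had 7 lower and 1 higher of 33 tested, with a median log2 difference of -0.21. Called genes made up 24.2% of the 33, against 4.08% of all tested genes. PGAM1, a glycolytic mutase, was at 654 to 720 CPM in water and 505 to 590 CPM in DMSO (log2 difference -0.34, SE 0.06, adjusted p = 4.75e-06). PGK1, ALDOC, BNIP3, NDRG1, P4HA1 and CA9, all known hypoxia-inducible genes, had log2 differences of -0.21, -0.55, -0.52, -0.60, -0.40 and -2.05. CA9 was low, at 9.97, 8.68, 4.39 and 0.436 CPM in water controls 39, 40, 47 and 48 and 0 to 3.79 CPM in DMSO. Its ranges overlapped, and its call was lost without water control 39 or without the odd-numbered first controls. The higher gene, ANGPTL4, a lipase inhibitor that PPAR factors also induce, had one of 0.35 (adjusted p = 0.00698). Without water control 39 the count of lower genes was 2, and leaving out number 40 or 47 it was 3 or 4. Of 23 tested ATF4 and amino acid stress genes, 4 were lower (NUPR1, STC2, TRIB3 and PSPH; 2 without water control 39 or 40, 1 without the even-numbered first controls) and 2 higher (CEBPB and the amino acid transporter SLC7A5). Called members were 26.1% of the 23.

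Several other pathways had few or no calls. For sterol synthesis and uptake 1 of 23 tested genes was called (MVD, higher), for endoplasmic reticulum chaperones 1 of 19 (HYOU1, higher), for heat shock and chaperones 1 of 20 (HSPB1, lower), and for methionine sulfoxide reduction and sulfur amino acids 1 of 18 (MPST, lower). DESeq2 called more: 4 higher and 1 lower for sterol genes, 4 lower for heat shock, and 2 lower and 1 higher for sulfur amino acids. With the set term edgeR called 3 higher and 1 lower sterol genes, 2 lower heat shock genes and 2 lower sulfur amino acid genes. HSPB1 and MPST were not called without water control 40 or without the even-numbered first controls. The methionine sulfoxide reductases MSRA and MSRB1, enzymes that act on sulfoxides, had log2 differences of -0.09 and 0.04 (adjusted p = 0.864 and 0.924). With edgeR none of 19 tested autophagy and lysosome genes was called (1 at an unadjusted p under 0.05, 1 called by DESeq2). Nor was any of 13 mitochondrially coded respiratory genes (1 at an unadjusted p under 0.05, 0 called by DESeq2), although as many as 4 were lower under an alternative. All 13 had a negative log2 difference (median -0.155). Of 26 nuclear-coded respiratory genes 1 was lower, and all 26 had a negative log2 difference (median -0.108). In DMSO chemicals against PFOA over the 4 doses, described below, 7 of the 13 and 14 of the 26 were lower and none was higher. There 22.3% of all tested genes were called. Of 12 osmotic stress and water transport genes (16.7% called), AKR1B1 and the water and glycerol channel AQP3 were lower (AQP3 log2 difference -1.29, adjusted p = 0.00221). Of 24 DNA methylation and histone modifying enzymes 8.33% were called, against 8.34% of all genes tested at a minimum count of 50. SIRT1 and UHRF1 were higher. Neither was called without water control 40 or without the even-numbered first controls, and 1 of them was without water control 39, 47 or 48. DNMT1, the maintenance DNA methyltransferase, had a log2 difference of 0.08 (adjusted p = 0.691).

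**Figure D2:**
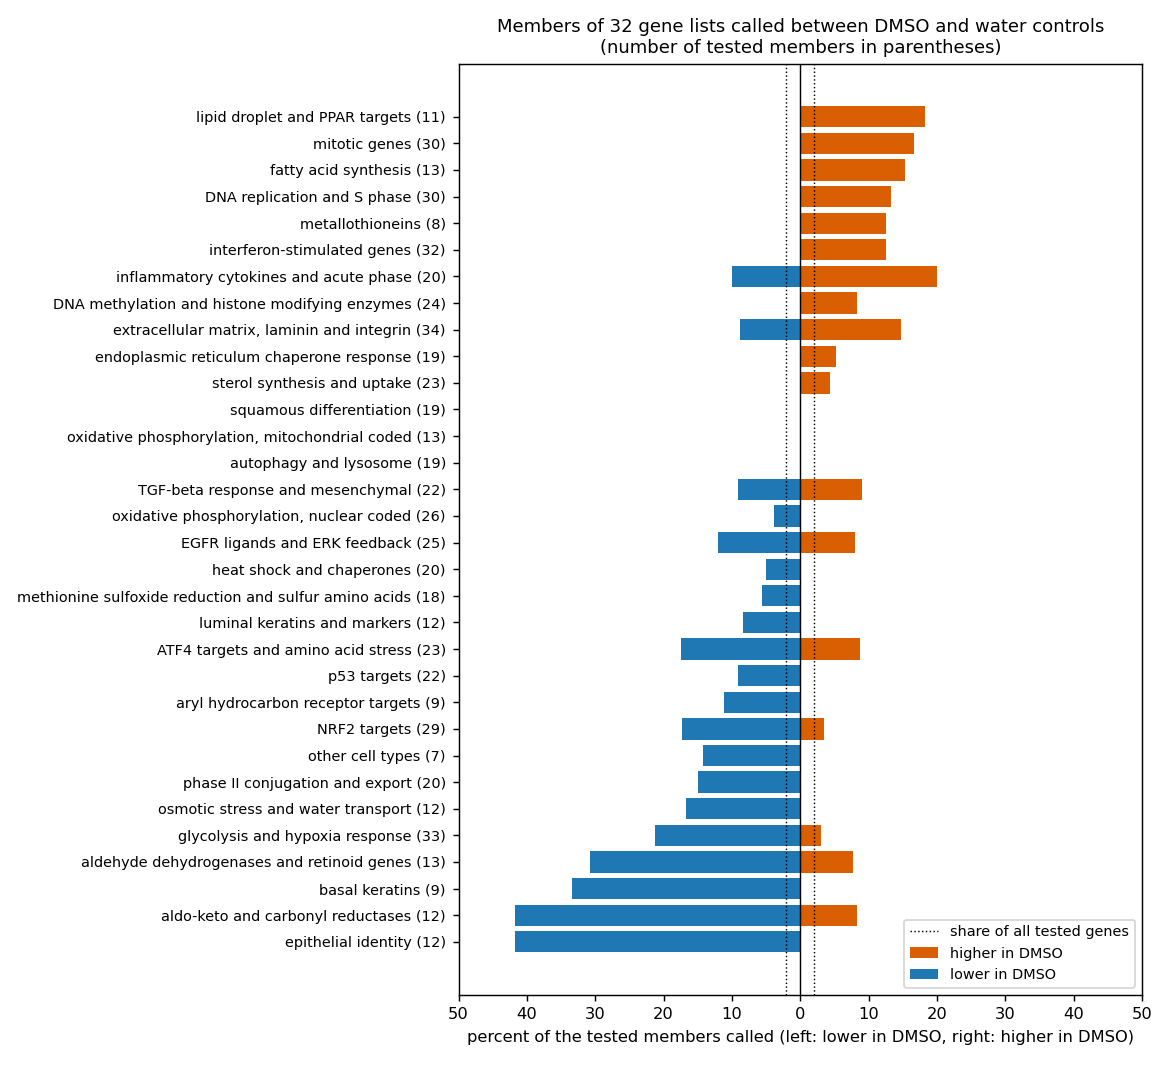
Percent of the tested members of each of 32 gene lists that were called between DMSO and water controls, lower in DMSO to the left and higher to the right, with the number of tested members in parentheses and the shares of all tested genes (2.13% and 1.95%) as dotted lines. Epithelial identity genes and aldo-keto reductases reach farthest to the left, and in the mitotic list calls are on the right alone.

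The 15 highest and the 15 lowest named genes differed in how firmly the libraries separated. Of the 15 lowest, 14 had ranges that did not overlap, IGFBP3 being the exception, and 13 stayed called under each of 27 alternatives; IGFBP3 and POSTN lost the call without the even-numbered first controls. Of the 15 highest, 4 had ranges that did not overlap (CACTIN, UNC13B, MT1X and SF3A2), and 4 stayed called under each alternative (SAA1, SAA2, TNFSF14 and MT1X). The median GC content of the longest transcript was 63.7% for the 15 highest and 49.5% for the 15 lowest, 56.5% for all 380 genes higher in DMSO, 49.7% for the 415 lower, and 48.0% for all tested genes with a GENCODE v29 match (95.3%). Genes of at least 60% GC took 10.9% to 11.2% of the counts in water controls and 10.5% to 12.8% in DMSO controls. The part of GC content in the result was not tested. Among low genes of the high-GC kind, SAMD11 was at 4.54, 5.79, 1.46 and 9.15 CPM in water and 7.94 to 23.9 CPM in DMSO, so the groups overlapped (log2 difference 1.59, adjusted p = 0.00723). The call of CEP131, a centrosome protein, was lost under 11 alternatives.

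The 2 sets of controls were then fitted apart. The first set alone called 532 genes (2.73% of those tested), 246 higher and 286 lower in DMSO, and the last set 154 genes (0.791%), 70 higher and 84 lower. With 1 water control of the set left out, so that the lone water library is assumed to vary like the other groups, the first set called 170 genes (number 39 out) or 175 (number 40 out), and the last set 42 (number 47 out) or 45 (number 48 out). The first set called 594 genes with a term for odd or even numbers, 111 without its even-numbered and 170 without its odd-numbered controls. Both sets called 92 genes, and all 92 had the same direction in both, which is 17.3% of the first set's calls and 59.7% of the last set's. Of the 532 genes that the first set called, 502 (94.4%) had the same sign in the last set, which shares no library with it. Testing the difference between the sets itself called 0 genes (0%) with edgeR, with 802 genes at an unadjusted p under 0.05. AKR1C2 had log2 differences of -1.72 in the first and -2.13 in the last set, S100A2 of -2.0 and -1.57, KRT14 of -2.08 and -3.07, and LAD1 of -2.10 and -2.34, each with an adjusted p of at most 8.59e-06 in both sets. SAA1 had log2 differences of 1.74 and 0.83 and SAA2 of 2.18 and 0.75, and SAA2 did not pass the test in the last set (adjusted p = 0.36). In DMSO controls SAA1 had a median of 1275 CPM in the first set and 651 CPM in the last, while the 4 water controls stayed between 342 and 393 CPM. Of the 15 highest named genes 13 were called in the first set and 3 in the last, and of the 15 lowest 15 and 13.

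Dosed cells on the same plate gave a comparison that shares no library with the controls, although in it solvent and chemical cannot be told apart. Cells given PFDA, PFNA, PFOS or phenanthrene in DMSO were set against cells given PFOA in water at 0.025 µM, the lowest dose. The test called 1170 genes (6.01%), 470 higher and 700 lower in the DMSO chemicals. It called 668, 451 and 757 genes when the libraries numbered 1, 2 or 4 were left out. Of the 795 genes called between the controls, 410 (51.6%) were called here as well, all 410 in the same direction, and these made up 35% of the 1170. In all, 773 of the 795 (97.2%) had the same sign, and across these genes the log2 differences had a Pearson r of 0.794 with a slope of 0.534, a description over genes, which are not independent replicates. PFOA at 0.025 µM differed from the water controls in 0 called genes (0%; 1410 at an unadjusted p under 0.05 with edgeR), and the DMSO chemicals at 0.025 µM differed from the DMSO controls in 5 (0.0257%).

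Over all 4 doses 4333 genes were called (22.3%), of which 678 were among the 795, and 677 of those had the same direction. Without the libraries numbered 2 the count was 2821. At single doses the number called was 889 at 0.25 µM, 702 at 2.5 µM and 697 at 25 µM, and the share of the 795 with the same sign was 95.6%, 95.7% and 90.4%. AKR1C2 was at 229, 274 and 377 CPM in the lowest, median and highest of 16 PFOA libraries and at 49.4, 79.2 and 126 CPM in the 64 libraries in DMSO, with no overlap (log2 difference -1.84 over the 4 doses, adjusted p = 2.85e-61). S100A2 was at 720 to 1193 CPM with PFOA and 206 to 629 CPM in DMSO, SULT1E1 at 18.8 to 52.1 and 0.651 to 13 CPM, LAD1 at 17.2 to 33.8 and 1.53 to 12.4 CPM, and DCN at 62.2 to 160 and 14.3 to 62.0 CPM. None of these 4 overlapped. KRT14 was at 17.2 to 85.0 CPM with PFOA and 1.46 to 19.6 CPM in DMSO, an overlap at the edges (log2 difference -2.55). Of the 30 mitotic genes 23 were higher in the DMSO chemicals over the 4 doses and none was lower. Of the 15 lowest named genes all 15 were called over the 4 doses in the same direction, and of the 15 highest 12 were. CACTIN, SF3A2 and OPLAH were the others, with log2 differences of 0.24, 0.24 and 0.01.

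**Figure D3:**
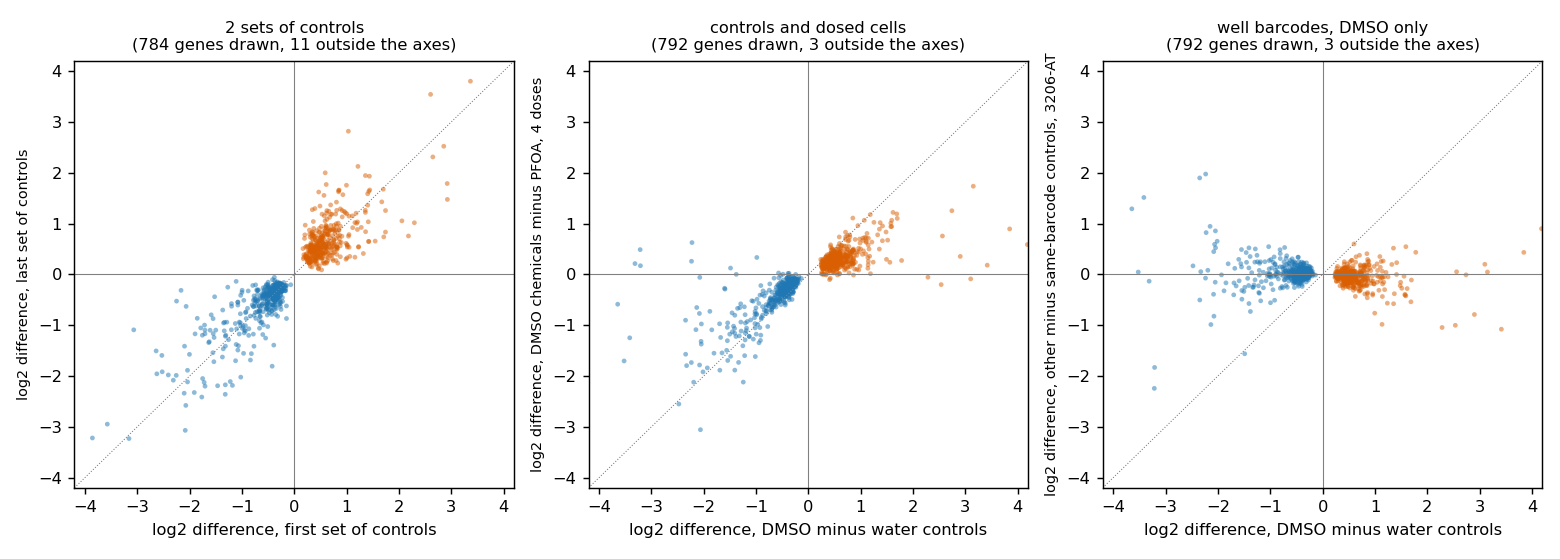
Log2 differences of the 795 called genes (orange higher, blue lower in DMSO controls): first against last set of controls, controls against dosed cells (DMSO chemicals minus PFOA over 4 doses), and controls against the barcode comparison on plate 3206-AT, with 784, 792 and 792 genes inside the axes. The first panel's points were chosen on the same libraries. In the second, 97.6% of the genes had the same sign, and in the third 38.6%.

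The water controls carried 4 well barcodes that recur on the other plates, which gave a check of the well barcode. The place of a well on the culture plate was not tested. On plates 3206-AT and 3284-AT every control was DMSO, and on 3153-AT every control was water. The controls that carried the same 4 well barcodes were compared with the other controls of each plate. The edgeR test called 0 genes (0%) on each of the 3 plates, and the unadjusted p was under 0.05 for 935, 680 and 662 genes. Of the solvent calls, 38.6%, 44.8% and 48.9% had the same sign there.

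Control levels on the other plates are set side by side below, where plate and solvent cannot be told apart and each plate was scaled on its own. AKR1C2 had medians of 660 and 268 CPM in the first and last water controls of plate 3153-AT. In the DMSO controls it had medians of 188 and 70.9 CPM on plate 3206-AT and 206 and 140 CPM on 3284-AT, so its levels also differed between the sets of controls within a plate. KRT14 had medians of 89.0 and 115 CPM on the water plate and 12.8 to 26.9 CPM on the DMSO plates. S100A2 had 1451 and 1598 CPM on the water plate and 465 to 1029 CPM on the DMSO plates, and SULT1E1 had 31.3 and 32.8 CPM against 1.74 to 6.15 CPM. SAA1 did not order by solvent, with medians of 1865 and 186 CPM on the water plate and 755 to 2792 CPM on the DMSO plates. MT1X likewise had medians of 96.1 and 18.6 CPM on the water plate and 72.4 to 139 CPM on the DMSO plates.

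**Figure D4:**
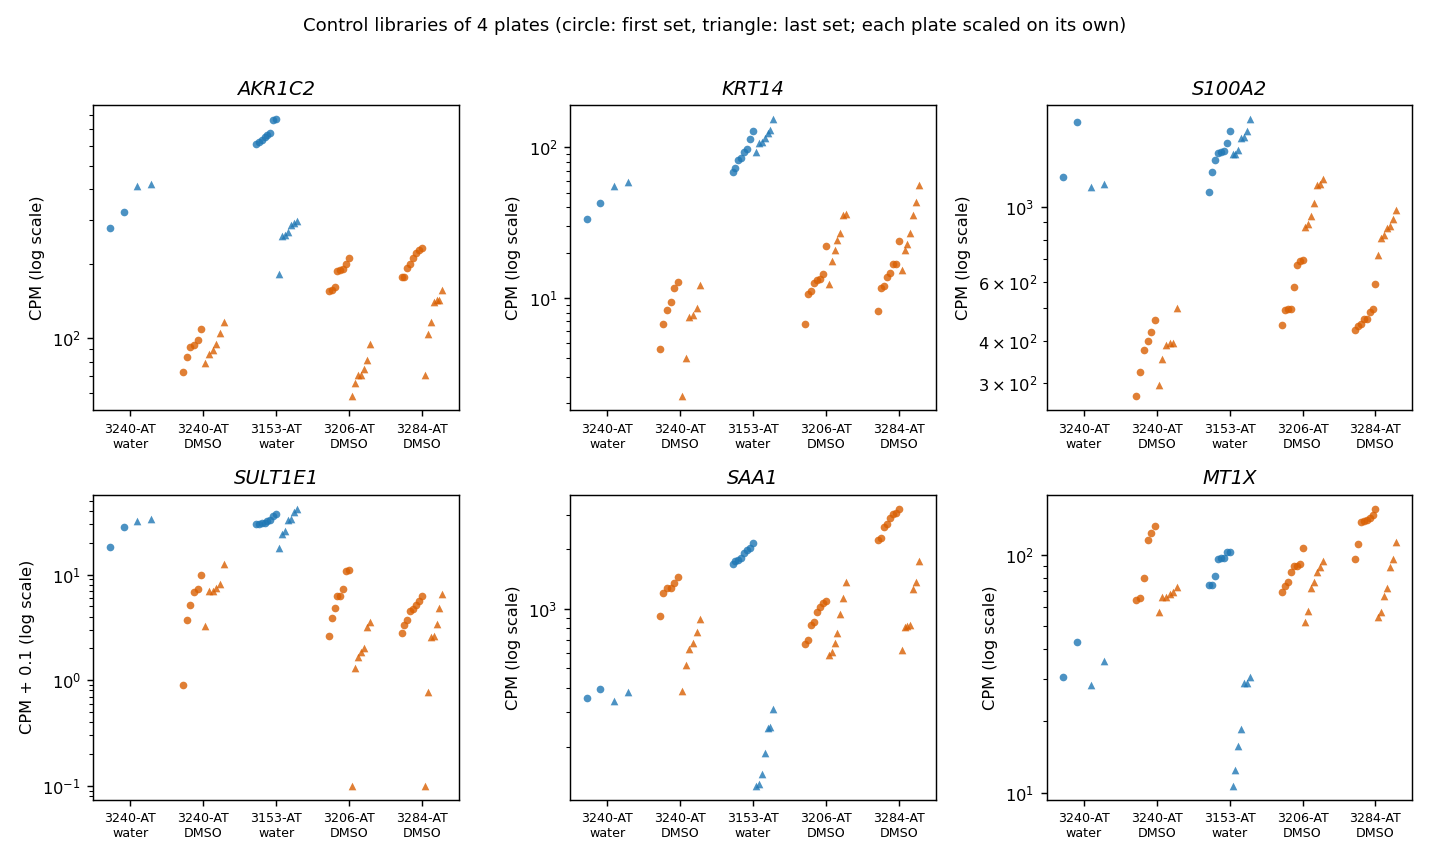
CPM on a log scale (CPM + 0.1 for SULT1E1) in each control library of 4 plates for 6 genes, by plate and solvent, with circles for the first and triangles for the last set and points within a set ordered by level. For SULT1E1 every water library lies above every DMSO library, and for SAA1 and MT1X the first set of plate 3153-AT lies among the DMSO libraries and the last set below them.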

How the data were processed

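Whole-number read counts per gene symbol were deposited by the authors, 1 file of 34718 symbols per library, and they differ in total and are not normalized. Per the submitters' processing notes, FastQC, MultiQC, STAR, featureCounts and GRCh38 were used, without versions. The sources used here do not state annotation, strand handling or treatment of reads shared by genes. Without molecular identifiers, counts are of reads, not molecules. Controls were grouped by their labelled solvent and plate. No pair of controls agreed within sampling noise (lowest chi-square per gene 7.13).

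All 96 libraries of plate 3240-AT were fitted together, with 1 mean per chemical and dose and 1 per control solvent, in edgeR 4.0.16 (R 4.3.3): filterByExpr (minimum count 10, minimum total 15), TMM scaling and the quasi-likelihood F-test with the common dispersion of the 5% most abundant genes. Log2 differences are DMSO minus water, p-values were Benjamini-Hochberg adjusted over all tested genes, and CPM uses TMM-scaled library sizes. The set comparison added the set to the group. DESeq2 1.42.0 and other settings are given in the closing section.

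Dosed replicate numbers 1 to 4 are shared between chemicals. Deviations of PFOA libraries correlated with those of the same number in DMSO at 0.235, 0.284, 0.24 and 0.326, each over 0.1, so the numbers were taken to pair libraries. Number 1 with 2 (0.258 and 0.305) and 3 with 4 (0.321 and 0.198) correlated as well, so the numbers 1 and 2 were not set apart from each other, nor 3 from 4.

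Named genes were the 15 highest and 15 lowest log2 differences under the rule in the text, the gene with the smallest p, and up to 4 called members per list by smallest p. One of them is not reported here. Genes named outside this rule, such as NQO1 and MSRA, were chosen after their values were seen. The samples, lists and rules were chosen with earlier results of these data known. Scripts were tested on simulated data. Promoter sequences and gene positions are from RefSeq (GRCh38.p14).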

Additional observations from a re-analysis of the deposited data

Results flagged for a closer look

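Each named gene was checked for a library far from the others of its group, in the 4 water controls, the 6 first DMSO controls and the 6 last DMSO controls. This gave 273 groups, of which 10 held such a library, where chance gives about 1 in 20. Water control 40 accounted for 4 of them: it was the highest for S100A2 (1783 CPM, the next 1225), FGFBP1 (88.9 CPM, the next 56) and MIR205HG (469 CPM, the next 385), and the lowest for AKR1B1 (867 CPM, the next 1027). Water control 47 was the lowest for ALDH1A3 (24.3 CPM, the next 35.3) and ANGPTL4 (516 CPM, the next 570), and water control 48 the highest for SNAI2 (176 CPM, the next 145). Among DMSO controls, number 41 was the highest of the last set for AKR1B1 (743 CPM, the next 658), number 38 the highest of the first set for KRT17 (121 CPM, the next 91.1), and number 33 the lowest of the first set for CDH2 (34.1 CPM, the next 44.2). In each case except ALDH1A3, where the water and DMSO ranges overlapped, and CDH2, where they overlapped as well, the groups kept apart with that library in place. For no named gene did the solvent difference itself differ between the sets of controls at an adjusted p under 0.05 with edgeR. The smallest unadjusted p of that test among genes given in the text was that of SAA1 (2.29e-04). Levels as such were not tested between the sets.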

How the results depend on the processing

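DESeq2 called 1290 genes between DMSO and water controls against 795, and the other settings without a library left out gave 756 to 1022, the latter with a term for the set and for odd or even numbers of the first set. Without the even-numbered first controls the count was 355, without the odd-numbered 366, and in the first set alone 111 and 170 (all added after seeing the data). Leaving out 1 control gave 384 to 796, lowest without water control 39, then 432 without 40. The first set called 339 genes when the controls were fitted alone and 170 to 175 without 1 of its water controls, the last set 42 to 45. For DMSO chemicals against PFOA at 0.025 µM, leaving out a replicate number gave 451 to 829 genes, and over 4 doses 2821 to 3813. A replicate block gave 1508 and 4609 genes and was applied to no other comparison, since control numbers are not shared between the solvents. The well barcode comparisons called 0 genes in every alternative. Trended dispersions, added after seeing the data, gave 963 and 961 genes. Of 91 named genes, none reversed under 27 alternatives, 41 stayed called under each, and 50 lost the call under at least 1, most often without the even-numbered first controls (33), the odd-numbered (23), water control 40 (23) or 39 (21). With 4 water libraries, small differences and low genes were not resolved, and the cause of each change was not tested.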

Other observations

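Beyond the lists above, steroid-converting enzymes, mitochondrial ribosomal proteins and class I antigen presentation genes were collected after their values were seen, so the counts describe and do not test. Of 22 tested steroid and estrogen metabolising enzymes, 7 were lower in DMSO and 2 higher (40.9% called, against 4.08% of all tested genes). Beside AKR1C1, AKR1C2, AKR1C3 and SULT1E1, the lower ones were HSD17B2, which oxidises estradiol, HSD11B1, which regenerates cortisol, and the vitamin D hydroxylase CYP27B1. HSD17B2 was at 59.5 to 73.1 CPM in water and 24.7 to 45.1 CPM in DMSO (log2 difference -0.94, adjusted p = 8.45e-08), and its ranges were apart in dosed cells as well (53.1 to 84.1 CPM with PFOA, 10.4 to 50 CPM in DMSO). The higher ones were the steroid reductases SRD5A1 and SRD5A3 (log2 differences 0.79 and 0.82).

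Of 77 tested mitochondrial ribosomal protein genes, 13 (16.9%, against 4.08% of all tested genes called) were lower and none higher. A negative log2 difference was seen in 68 of the 77, with a median of -0.18. MRPS35 was at 116 to 120 CPM in water and 74.1 to 102 CPM in DMSO (log2 difference -0.39). Without water control 39 the number lower was 5, without number 40 it was 6, and without the even-numbered first controls 3. Of 78 cytosolic ribosomal protein genes 1, RPS6, was called, lower in DMSO. Here too most leaned one way: 76 of the 78 had a negative log2 difference, with a median of -0.145. Of 15 class I antigen presentation genes, 4 (26.7%) were higher (TAPBP, HLA-B, TAP1 and PSMB9) and none lower. The higher count was 2 without water control 48 and 1 without the even-numbered first controls. TAPBP, the peptide-loading protein tapasin, was at 197 to 212 CPM in water and 248 to 355 CPM in DMSO (log2 difference 0.51, adjusted p = 2.20e-05).

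Further genes whose groups did not overlap, also picked by their values, were XDH, xanthine dehydrogenase (9.65 to 12.9 CPM in water, 0.152 to 4.84 CPM in DMSO), CUL4B, a ubiquitin ligase scaffold (145 to 223 and 60.4 to 116 CPM), THBD, thrombomodulin (92.6 to 99.9 and 38.8 to 68.5 CPM), IGFBP6 (502 to 598 and 294 to 431 CPM) and HMGA1, a chromatin protein (1700 to 1782 and 1032 to 1313 CPM).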
